A study of Mus musculus with 7 samples.

Results

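The genes described here are the ADAM, ADAMTS, MMP and TIMP genes of the mouse: every protein-coding gene whose symbol is Adam, Adamts, Mmp or Timp followed by a number and at most 1 letter, apart from Mmp7. This rule uses symbols alone and no measured value. It gave 79 of the 21627 protein-coding genes in a table of 55414 gene identifiers, namely 34 ADAM, 19 ADAMTS, 22 MMP and 4 TIMP genes. They were measured by RNA sequencing in Paneth cells (PCs) purified with a cell sorter from the small intestine of C57BL/6J mice, 15 h after they received tumour necrosis factor (TNF, 4 libraries) or phosphate-buffered saline (PBS, 3 libraries) by injection. According to the design text of the series, every library is from another mouse. No gene was altered in either group, and neither the age and sex of the mice nor the dose and the sorting markers were stated in the sources.

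PCs sit at the bottom of the crypts of the small intestine, where they secrete antimicrobial peptides and signals for the neighbouring stem cells. ADAM proteins are mostly membrane proteins, and their active members cut the outer part off other membrane proteins, a step called shedding that releases cytokines, growth factors and receptors. ADAMTS proteins are secreted and act on matrix proteoglycans and collagens, MMPs cut matrix and cell surface proteins, and TIMPs block the active sites of MMPs and of some ADAM and ADAMTS enzymes. These enzymes are made as inactive precursors, so that a transcript level is not an enzyme activity.

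Total counts per library ran from 15511455 to 19193721 and did not differ between the groups by an exact permutation test (two-sided, p = 0.457, 35 splits). Each of the 8 PC markers examined was detected, and their summed level was 115966 to 177490 CPM after PBS and 112165 to 199931 CPM after TNF, where CPM are counts scaled to 1000000 per library after adjusting the library sizes. Of these markers 1 rose and 4 fell, beside 29.5% and 30.1% of all tested genes. Markers of other cells were present as well. Their summed level after PBS and after TNF ran from 10434 to 19241 and from 8770 to 9839 CPM for the 6 goblet markers, from 1394 to 2305 and from 264 to 674 CPM for the 6 tuft markers, and from 2546 to 3693 and from 998 to 1627 CPM for the 5 stem cell markers. The 9 enterocyte markers summed to 88.3 to 176 CPM after PBS and 53.4 to 68.1 CPM after TNF, and the 7 enteroendocrine markers to 45.8 to 117 and 18.2 to 32.2 CPM. The part of these cells in the values below was not tested, and fewer cells of a type cannot be told apart from less RNA per cell in such bulk libraries.

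Most of these genes were silent or close to it. Of the 79 genes, 29 had 0 counts in all 7 libraries (36.7%, against 27.7% of the protein-coding genes), 29 had counts but did not pass the filter on low counts, and 21 were tested (26.6%, against 57.1% of the protein-coding genes). The edgeR quasi-likelihood test called 13 of the 21 tested genes at an adjusted p under 0.05, of which 6 were higher and 7 lower after TNF. This is 61.9% of those tested, beside 59.6% of all 14329 tested genes (29.5% higher and 30.1% lower), so that the share of calls lies near the background. At least 2-fold changes were called in 8 genes, 3 higher and 5 lower, which is 38.1% beside 31.6% of all tested genes (14.4% higher and 17.2% lower). The libraries of the 2 groups did not overlap in 14 genes (66.7%, beside 60.7%), 6 higher (29.9% of all tested genes) and 8 lower (30.9%). The median log2 fold change was −0.12 over the 21 genes and 0.0017 over all tested genes. A gene expressed in 1 group alone can pass the filter only by that group, and Adamts4 below is such a gene. Genes that were low in 1 group share this limit. Adam8 and Adamts1 were under 1 CPM in every PBS library. Adam4 and Adamts15 were under 1 CPM in every TNF library, as was Adamts7 in all but TNF replicate 1. All of these are among the 2-fold calls, so those counts are not independent of the filter.

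**Figure D1:**
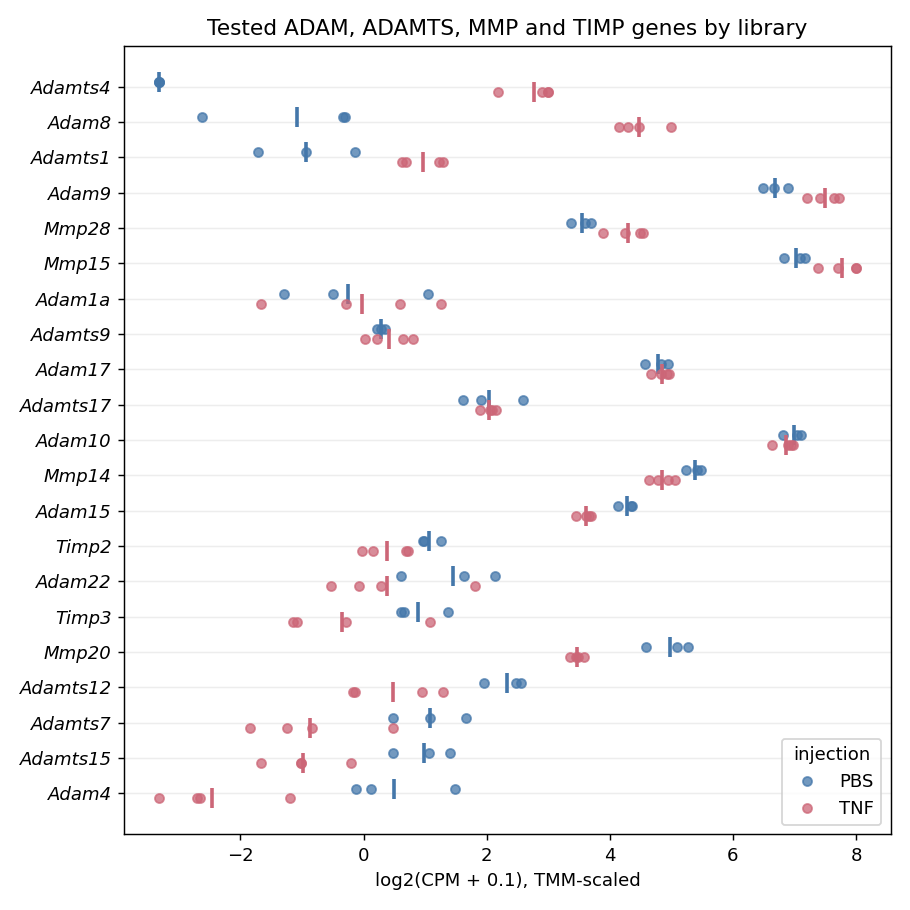
Level of the 21 tested genes in every library, as log2(CPM + 0.1), with 1 point per library (blue PBS, n = 3; red TNF, n = 4), a vertical tick at the mean of the log values and genes ordered by fitted change. The points of the 2 groups are apart for Adamts4, Adam8 and Adamts1 at the top and for Mmp20, Adamts12 and Adamts15 near the bottom, and mixed for Adam17, Adamts17 and Adam10.

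Promoters of the strongest riser among the ADAM genes and the strongest faller among the MMP genes are shown first, as the 250 bases before the annotated start (RefSeq, GRCm38.p6). Adam8 lies on the minus strand of chromosome 7 (chr7:139992563-139992812) and Mmp20 on the plus strand of chromosome 9 (chr9:7627981-7628230). Capitals mark the single match to the AP-1 letters TGANTCA, 95 bases before the Mmp20 start.
Adam8: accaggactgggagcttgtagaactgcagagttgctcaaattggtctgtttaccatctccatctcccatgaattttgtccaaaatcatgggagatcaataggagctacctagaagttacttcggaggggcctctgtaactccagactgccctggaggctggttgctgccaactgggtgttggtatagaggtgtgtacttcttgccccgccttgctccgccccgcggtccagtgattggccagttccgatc
Mmp20: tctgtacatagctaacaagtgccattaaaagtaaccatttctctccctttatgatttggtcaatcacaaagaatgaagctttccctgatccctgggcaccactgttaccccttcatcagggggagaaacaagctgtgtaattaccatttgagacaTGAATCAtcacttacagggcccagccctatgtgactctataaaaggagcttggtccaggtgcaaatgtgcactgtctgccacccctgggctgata

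Both strands of these windows were searched for TGANTCA, for the STAT letters (TTC and GAA with 3 bases between them) and for the NF-kB consensus. Promoters were found for 16 of the 21 tested genes. AP-1 letters were in 1 of them (Mmp20) and in 6.75% of all 32851 promoters of this length, NF-kB letters in 1 (Adamts9) and in 7.25%, and STAT letters in 0 and in 7.02%. The Adam8 window held none of the 3, which says only that these letters are not within 250 bases of that start.

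Among the membrane-bound ADAM sheddases, Adam8 rose and Adam9 rose, Adam15 fell, and the calls for Adam10 and Adam17 did not pass the threshold. Adam8 (ENSMUSG00000025473, GRCm39 chromosome 7, 139558845 to 139572475) encodes a sheddase best known from leukocytes. Its level was 0.0618, 0.713 and 0.689 CPM in the PBS libraries and 31.7, 17.6, 22.1 and 19.5 CPM in the TNF libraries. Every TNF library was thus far above every PBS library, and the fit gave a log2 fold change of 5.47 ± 0.41 (SE), or 44.3-fold, with an adjusted p of 2.36e-07. The counts behind it were 28 after PBS and 1577 after TNF.

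Leukocyte markers were looked at beside Adam8, and they changed in both directions. The 12 markers summed to 29.1 to 38.4 CPM after PBS and 50.2 to 62.4 CPM after TNF. Of 6 tested, 2 rose and 1 fell, beside 29.5% higher and 30.1% lower among all tested genes. Cd14, a receptor subunit for lipopolysaccharide, was at 4.22 CPM after PBS and 30.2 CPM after TNF, and the neutrophil gene S100a9 had 0 and 399 counts. Ptprc, which encodes the pan-leukocyte protein CD45, fell from 16.4 to 8.50 CPM (adjusted p = 0.027), and the T cell marker Cd3e was at 0 in all libraries. Their part in the rise of Adam8 was not tested.

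Adam9 (chromosome 8, 25439626 to 25507096), a widely expressed sheddase, stood at 119, 102 and 90.0 CPM after PBS and at 148, 210, 171 and 198 CPM after TNF. The groups did not overlap, and the log2 fold change was 0.81 ± 0.14 (1.76-fold, adjusted p = 0.000168). Adam15 (chromosome 3, 89245846 to 89257511), of epithelium and endothelium, averaged 19.4 ± 1.65 CPM after PBS and 12.1 ± 0.874 CPM after TNF (SD, n = 3 and 4), with an adjusted p of 0.000959 and a fitted log2 change of −0.68 ± 0.14. A noncoding gene on the opposite strand shares 1364 exon bases with Adam15 but had 31 and 9 counts.

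Adam10 (chromosome 9, 70586221 to 70687511), the sheddase of Notch receptors and E-cadherin, was at 131, 137 and 113 CPM after PBS and at 119, 98.7, 126 and 123 CPM after TNF. Adam17 (chromosome 12, 21373510 to 21423672), the enzyme that releases TNF, its receptors and ligands of the EGF receptor, was at 23.7, 28.4 and 30.5 CPM and at 28.4, 30.2, 31.2 and 25.3 CPM. Both genes had overlapping groups. The log2 fold change was −0.12 for Adam10 (95% interval −0.36 to 0.13, adjusted p = 0.388) and 0.06 for Adam17 (−0.22 to 0.34, adjusted p = 0.704).

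Other ADAM genes were low. Adam4 (chromosome 12, 81466217 to 81468720), an ADAM known from testis, had 0.989, 0.814 and 2.704 CPM after PBS and 0.336, 0.0589, 0.0535 and 0 CPM after TNF, on 83 and 8 counts. It fell by 3.63 ± 0.84 on the log2 scale (12.4-fold lower, adjusted p = 0.00194), and the log2 fold change was −2.90 without PBS replicate 3 and −5.04 without TNF replicate 1. Adam4 did not pass a stricter filter of at least 1 CPM in 3 libraries, so it has no call there. Adam22, which encodes a neuronal receptor without protease activity, had a log2 fold change of −0.96 ± 0.58 (adjusted p = 0.17) and Adam1a, a sperm gene, of 0.26 ± 0.76 (adjusted p = 0.78). Without TNF replicate 1, Adam22 was called lower (−1.77, adjusted p = 0.00747). Adam22 shares 6137 exon bases with the opposite-strand gene Sri, which had 5982 and 8188 counts, and Adam1a shares 771 bases with a same-strand gene with 44 and 72 counts. Since the use of strand in counting is not given, reads of such pairs cannot be told apart.

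The remaining ADAM genes included the fertility genes, and few of them gave counts. Of the 34 ADAM genes, 16 had 0 counts throughout: Adam1b, Adam5, Adam6a, Adam6b, Adam7, Adam12, Adam20, Adam23, Adam24, Adam25, Adam26a, Adam26b, Adam29, Adam34, Adam34l and Adam39. Chromosome 8 carries 14 ADAM genes, of which 10 were at 0, 2 had under 10 counts, Adam32 had 14, and Adam9 alone was tested. Adam11, another ADAM without protease activity, gave 49 counts with PBS against 10 with TNF, and the 14 of Adam32 were 7 in either group.

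In the ADAMTS family the direction of change differed between members that share a substrate. Of 4 tested proteoglycan-cleaving members (hyalectanases), Adamts4 and Adamts1 rose, Adamts15 fell and Adamts9 did not pass the test. The 2 members that cleave cartilage oligomeric matrix protein, Adamts7 and Adamts12, were both lower after TNF.

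Adamts4 (ENSMUSG00000006403, chromosome 1, 171077986 to 171089841), an aggrecan- and versican-cleaving enzyme, had 0 counts in all 3 PBS libraries and 7.33, 7.90, 4.44 and 7.85 CPM after TNF, on 468 counts. Its adjusted p was 2.96e-07, and against a floor of 3 counts over the PBS group its level was at least 124-fold higher. The bound is 87.3 without PBS replicate 1, 79.5 without PBS replicate 2 and 81.2 without PBS replicate 3, because the floor then rests on fewer libraries.

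Adamts1 (chromosome 16, 85590579 to 85600009) was at 0.804, 0.204 and 0.424 CPM after PBS and at 1.51, 2.24, 1.45 and 2.36 CPM after TNF. All TNF libraries lay above all PBS libraries, with a log2 fold change of 1.99 ± 0.56 (3.97-fold, adjusted p = 0.00707). Adamts15 (chromosome 9, 30810451 to 30833863) went the other way, from 1.30, 1.99 and 2.55 CPM to 0.392, 0.766, 0.214 and 0.393 CPM, a log2 fold change of −2.13 ± 0.54 (4.38-fold lower, adjusted p = 0.00375). Adamts9 differed by 0.18 ± 0.46 (adjusted p = 0.757), with an interval from −0.81 to 1.17. Of the other hyalectanases, Adamts5 was at 0, Adamts8 had 0 and 4 counts, and Adamts20 had 0 and 1.

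Adamts12 (chromosome 15, 11064876 to 11349318) was at 5.44, 5.75 and 3.76 CPM after PBS and at 2.35, 1.83, 0.803 and 0.785 CPM after TNF. The groups were apart, and the log2 fold change was −1.78 ± 0.41 (3.44-fold lower, adjusted p = 0.00189). Adamts7 (chromosome 9, 90045062 to 90090124) was at 1.30, 3.05 and 2.02 CPM and at 1.29, 0.177, 0.321 and 0.458 CPM, so that TNF replicate 1 came next to PBS replicate 1. Its log2 fold change was −1.91 ± 0.62 (3.75-fold lower, adjusted p = 0.016). The call was lost without PBS replicate 2 (−1.55, adjusted p = 0.0944), and the log2 fold change was −2.73 without TNF replicate 1. Adamts7 shares 122 exon bases with the opposite-strand gene Tbc1d2b, which rose (log2 fold change 0.90 ± 0.11).

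Adamts17 differed by −0.05 ± 0.30 on the log2 scale (adjusted p = 0.895). Procollagen N-proteinases were nearly silent: Adamts2 and Adamts14 were at 0, and Adamts3 had 10 and 0 counts, at least 4.19-fold lower. Adamts18 and Adamts19 were at 0 as well. Adamts16 had 14 and 0 counts, at least 5.87-fold lower, and the fibrillin-linked Adamts6 and Adamts10 had 44 and 27 and 33 and 8 counts. Adamts13, which cleaves von Willebrand factor, had 0 and 10 counts, at least 2.65-fold higher, a bound of 1.70 without PBS replicate 2 and of 1.74 without PBS replicate 3. TNF replicate 4 had 0 counts of Adamts13 as well, and the edgeR fit without the filter on low counts did not call it (adjusted p = 0.096).

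Markers of stromal and endothelial cells, which make many ADAMTS and MMP proteins, fell alongside. The 13 markers summed to 3.58 to 4.28 CPM after PBS and 0.589 to 2.18 CPM after TNF, both tested markers were lower, and Col1a2, Col6a1, Lum and Kdr were at 0 in every library. TNF replicate 1 had the highest sum of the TNF libraries. Of the 7 genes that fell, it was the highest TNF library for Adam4, Adamts7 and Adamts12 but not for Adam15, Adamts15, Mmp14 and Mmp20. It was also the highest for Adam8, which rose, and for Adam1a, Adam22 and Timp3, which were not called. The part of these cells in the falls was not tested.

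**Figure D2:**
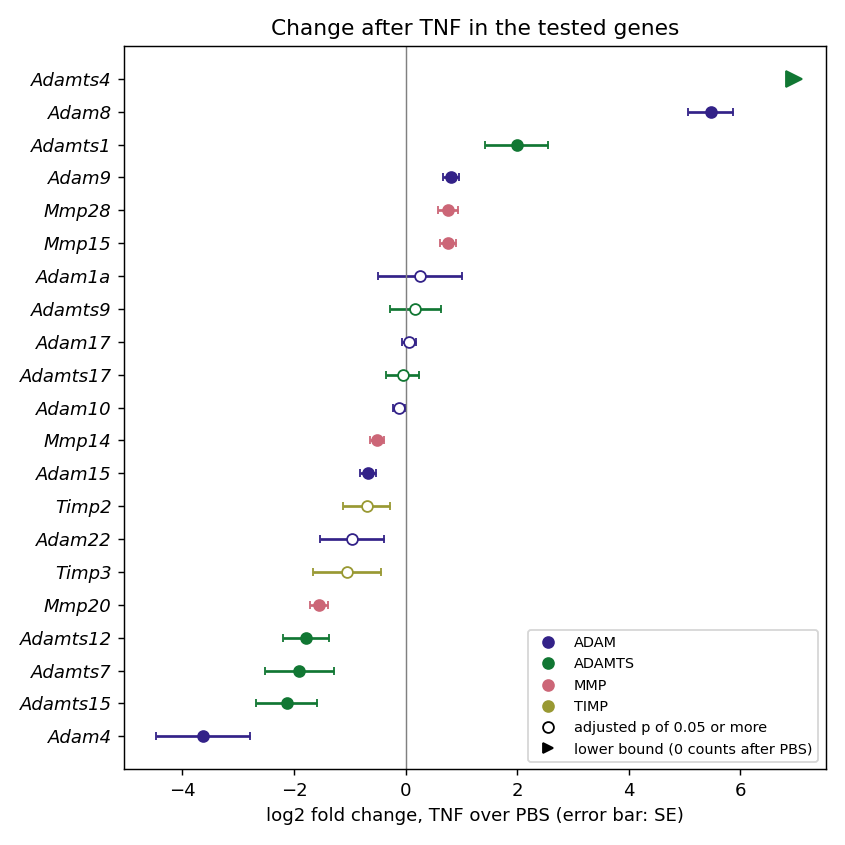
Fitted log2 fold change of TNF over PBS for the 21 tested genes, with SE bars, coloured by family. Filled points have an adjusted p under 0.05, open points do not, and the triangle for Adamts4 is the lower bound of at least 124-fold (log scale), since PBS libraries had 0 counts. All 4 tested MMP genes are filled, 2 on either side of 0, and both TIMP genes are open.

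In the MMP family 4 genes were tested and all were called, beside 59.6% of all tested genes (29.5% higher and 30.1% lower): Mmp15 and Mmp28 rose, and Mmp14 and Mmp20 fell. Both tested membrane-type MMPs thus moved, in opposite directions. Mmp15 (chromosome 8, 96078895 to 96101708), which encodes a membrane-anchored enzyme, was at 143, 135 and 113 CPM after PBS and at 167, 254, 255 and 209 CPM after TNF. Its groups did not overlap, and its log2 fold change was 0.76 ± 0.15 (1.69-fold, adjusted p = 0.000599). Mmp14 (chromosome 14, 54668878 to 54682821), the activator of pro-MMP2, was at 44.7, 42.4 and 37.5 CPM and at 30.6, 24.8, 33.1 and 27.4 CPM. It was lower in every TNF library, with a log2 fold change of −0.52 ± 0.13 (1.43-fold lower, adjusted p = 0.00266). Mmp28 (chromosome 11, 83330646 to 83353986), the epithelial protease epilysin, rose by 0.76 ± 0.18 on the log2 scale (adjusted p = 0.00199), with means of 11.7 ± 1.27 and 19.8 ± 3.88 CPM (SD, n = 3 and 4).

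Mmp20 (ENSMUSG00000018620, chromosome 9, 7628232 to 7674980), known as the enamel protease enamelysin, was at 38.4, 33.9 and 24.0 CPM after PBS and at 10.9, 10.1, 11.1 and 11.8 CPM after TNF. The 4 TNF libraries lay close together and below every PBS library, and the log2 fold change was −1.55 ± 0.16 (2.92-fold lower, adjusted p = 2.05e-06). It lies in a cluster of 10 MMP genes that spans 427 kb of chromosome 9 and ends with Mmp7, which encodes matrilysin, the PC protease that activates alpha-defensins. Mmp7 lies 17110 bases beyond Mmp20 on the same strand and changed the other way (0.88 ± 0.21 on the log2 scale, adjusted p = 0.00223). Per 1000 counts of Mmp7 there were 8.34 counts of Mmp20 after PBS and 1.56 after TNF. Of the 8 other genes in the cluster, Mmp13 had 0 and 3 counts, Mmp12 had 1 and 3, and Mmp1a, Mmp1b, Mmp3, Mmp8, Mmp10 and Mmp27 had 0. Expression in the cluster was therefore nearly that of Mmp20 and Mmp7 alone in these libraries.

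**Figure D3:**
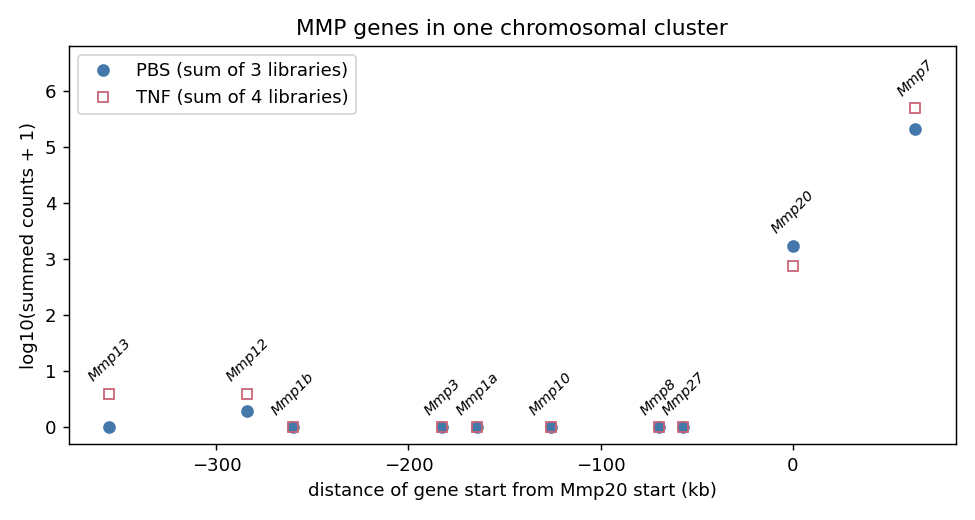
Summed counts, as log10(counts + 1), of the 10 genes of the chromosome 9 MMP cluster against the distance of each gene start from that of Mmp20 in kb (circles PBS, 3 libraries; squares TNF, 4 libraries). Mmp20 has 1740 and 754 counts and Mmp7 has 208755 and 484107, and the other 8 genes lie at 3 counts or fewer per group.

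Gelatinases were absent or nearly so. Mmp2 had 0 counts in every library, and Mmp9, an enzyme of neutrophils, had 0 in 6 libraries and 6 counts in TNF replicate 3. Among the membrane-anchored MMPs below the filter, Mmp17 had 20 and 1 counts, a scaled ratio of 0.040 (95% exact interval 0.00096 to 0.25, counting error only). The ratio was 0.065 without PBS replicate 3, and without TNF replicate 4, which held the TNF count, Mmp17 was at least 6.52-fold lower. Mmp16, Mmp24 and Mmp25 had 5 and 0, 1 and 4, and 0 and 2 counts. Mmp11 had 12 and 9 counts, Mmp21 had 5 and 9, all 9 in TNF replicate 2, and Mmp23 had 9 and 4.

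No TIMP gene was called. Timp2 (chromosome 11, 118191887 to 118246566), which also takes part in the activation of pro-MMP2, was at 1.85, 1.88 and 2.28 CPM after PBS and at 1.01, 0.884, 1.55 and 1.51 CPM after TNF. The groups did not overlap, but the log2 fold change of −0.70 ± 0.42 did not pass (adjusted p = 0.172, interval −1.60 to 0.21). Timp3 (chromosome 10, 86136236 to 86185371), the matrix-bound inhibitor of ADAM17 and of ADAMTS enzymes, was at 1.42, 1.48 and 2.49 CPM and at 2.01, 0.354, 0.375 and 0.72 CPM. TNF replicate 1 lay among the PBS libraries, and the log2 fold change was −1.05 ± 0.61 (adjusted p = 0.154). Without that library Timp3 was called lower (−1.90, adjusted p = 0.00824). It lies within the opposite-strand gene Syn3, with 1734 shared exon bases, 122 and 81 counts and a log2 fold change of −0.91 ± 0.45.

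Timp1, a secreted inhibitor induced in many inflamed tissues, did not pass the filter. It was at 0.124, 0.204 and 0 CPM after PBS and at 0.392, 1.47, 0.375 and 1.24 CPM after TNF, on 6 and 58 counts. All TNF libraries lay above all PBS libraries, and Timp4 had 0 counts throughout. In a fit without the filter, 18 of 50 detected members were called, beside 37% of all 24572 genes. The 5 added were Timp1 (log2 fold change 2.91 ± 0.97, adjusted p = 0.00895), Adam11 (−2.57 ± 0.91, adjusted p = 0.0144), Mmp17, Adamts16 and Adamts3, and the last 4 were lower. These rest on 10 to 64 counts in all 7 libraries.

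Genes with 1 to 9 counts over all libraries numbered 17. Those with counts after TNF alone were Adam2, Adam3, Adam19, Adam28, Adamts8, Adamts20, Mmp9, Mmp13, Mmp19 and Mmp25, with at most 6 counts each. Adam18, Adam33 and Mmp16 had counts after PBS alone (5, 3 and 5). Adam21, Adam30, Mmp12 and Mmp24 had counts in both groups, at most 6 per group. At these counts a difference between the groups was not detectable.

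Levels were compared between genes as CPM per kilobase of exon, where the length covers the exons of all annotated transcripts of a gene. Ranks depend on that choice of length, and the SD covers the spread of libraries only. After PBS, Mmp15 (24.2 ± 2.87), Adam9 (23.8 ± 3.34) and Adam10 (22.8 ± 2.30; SD, n = 3) led among the 79 genes, which leave out Mmp7. These 3 did not differ beyond their spread. Mmp20 followed at 9.77 ± 2.24, then Mmp14 at 6.73 ± 0.595 and Adam17 at 3.22 ± 0.407. After TNF, Adam9 (41.8 ± 6.44) and Mmp15 (41.0 ± 7.78; SD, n = 4) were level with each other and above Adam10 (21.0 ± 2.24). Adam8 moved from rank 18 to rank 4 of the 21 genes, at 4.90 ± 1.35, and Mmp20 from rank 4 to rank 7, at 3.34 ± 0.222. Adam8 and Mmp14 (4.70 ± 0.588) did not differ beyond their spread after TNF, nor did Adam17 (3.36 ± 0.303) and Mmp20. Of the summed level per kilobase over all 79 genes, Mmp15 held 24.5% after PBS and 32.0% after TNF and Adam9 held 24.1% and 32.6%, while Adam10 went from 23.1% to 16.4%.

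**Figure D4:**
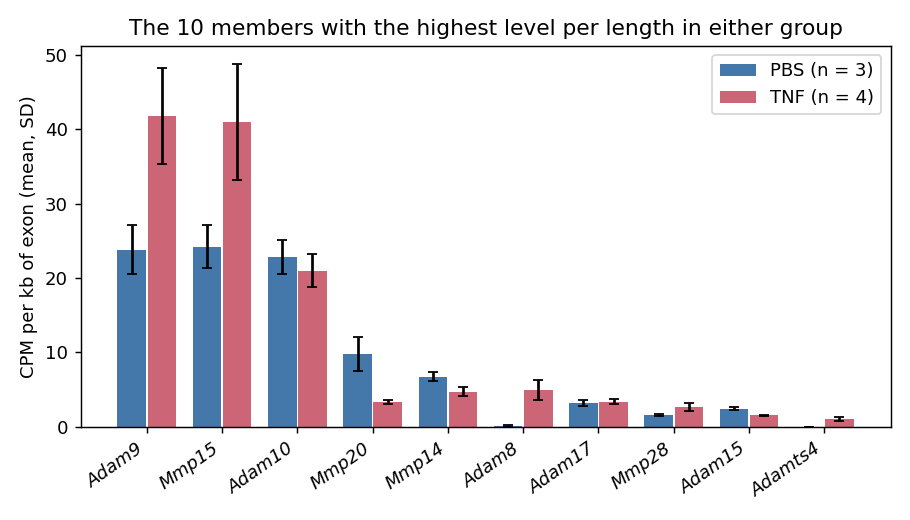
Mean CPM per kilobase of exon for the 10 genes, Mmp7 left out, with the highest level in either group (blue PBS, n = 3; red TNF, n = 4; error bars are SD). Mmp15, Adam9 and Adam10 stand near 23 to 24 after PBS, Mmp15 and Adam9 at 41.0 and 41.8 after TNF, and Adam8 and Adamts4 have almost no PBS bar.

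As a sum over each family, ADAM transcripts came to 285 ± 17.5 CPM after PBS (SD, n = 3) and 366 ± 15.1 CPM after TNF (SD, n = 4). MMP transcripts without Mmp7 came to 217 ± 27.0 and 282 ± 44.2 CPM. Mmp7, which the rule leaves out, was far above these sums, at a mean of 3862 CPM after PBS and 7113 CPM after TNF. Under scaling by total counts the difference between the groups was 44.9 CPM in place of 80.9 CPM for ADAM and 38.1 CPM in place of 64.7 CPM for MMP. ADAMTS sums were 16.7 ± 0.568 and 17.2 ± 2.83 CPM, a difference of 0.57 CPM that was −1.33 CPM under scaling by total counts, −0.025 CPM without TNF replicate 1 and −0.050 CPM without TNF replicate 2. TIMP sums were 3.91 ± 0.75 and 2.97 ± 0.565 CPM, a difference of −0.94 CPM that was −1.42 CPM under scaling by total counts and −0.50 CPM without PBS replicate 3. These are descriptions without a test.

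Genes that act on or with these enzymes are given next from 9 lists, each with its count beside the 59.6% of all tested genes that were called. Partners that traffic ADAM17 and ADAM10 (iRhoms and TspanC8 tetraspanins) changed in 5 of 8 tested genes, with a median log2 fold change of 0.29. Rhbdf2, encoding the iRhom2 that brings ADAM17 to the cell surface, rose by 2.24 ± 0.13 on the log2 scale, from 28.9 ± 3.32 to 137 ± 16.2 CPM (adjusted p = 8.59e-09). The ADAM10 partners Tspan5 (1.26 ± 0.14) and Tspan15 (1.19 ± 0.10) rose, and Tspan33 fell (−2.60 ± 0.37). Tspan14 fell (−0.27 ± 0.11, adjusted p = 0.0425), a call that ended on leaving out PBS replicate 1 (adjusted p = 0.153) or 2 or TNF replicate 4, and without the filter on low counts. Of the proprotein convertases, which cut the precursors, 3 of 8 rose and 3 fell (median −0.47). Furin rose from 144 to 228 CPM (0.66 ± 0.11, adjusted p = 0.000115), while Pcsk5 (−1.94 ± 0.35), Pcsk1 (−1.14 ± 0.20) and Mbtps1 (−0.94 ± 0.10) fell. Pcsk7 rose (0.34 ± 0.12, adjusted p = 0.0264), a call that ended on leaving out PBS replicate 2 or 3 or TNF replicate 2 or 3, and under scaling by total counts (adjusted p = 0.304).

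The list of plasminogen activation and membrane serine proteases, enzymes that can activate MMP precursors, also holds receptors and inhibitors, and 5 of its 9 tested genes rose and 2 fell (median 0.90). The 5 that rose include the urokinase receptor Plaur and the protease inhibitor Spint1, and the 2 that fell include the inhibitor Serpine2, whose call was lost without PBS replicate 2 (adjusted p = 0.0666) and which did not pass the stricter filter. Plat, encoding tissue plasminogen activator, went from 0.0848 to 20.4 CPM (7.70 ± 0.49, adjusted p = 3.93e-08), with all 5 PBS counts in PBS replicate 2, and Plaur from 1.23 to 55.6 CPM (5.51 ± 0.20). Without PBS replicate 2 the fitted change of Plat was 11.47, against libraries at 0. St14, encoding matriptase, rose from 157 to 576 CPM (1.88 ± 0.13), and Prss8, encoding prostasin, fell (−1.18 ± 0.17). Plau, the urokinase itself, had 0 and 9 counts. Among other metalloproteinase inhibitors 0 rose and 1 of 4 tested fell (median −0.24): Tfpi2 (−1.21 ± 0.26, adjusted p = 0.000968). The number called in either direction was 2 without PBS replicate 1 or 2, under total counts and without the filter on low counts. It was 3 without PBS replicate 3. Reck, the membrane-anchored inhibitor of MMPs, had 3 and 64 counts and did not pass the filter.

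Of the 9 lists, that of shed growth factors, cytokines and chemokines had the highest median. Of 11 tested genes in it 8 rose and 2 fell (median 3.19). The call of Cx3cl1, a chemokine among the 8, was lost under total counts (adjusted p = 0.104), without PBS replicate 3 (adjusted p = 0.129) and on leaving out TNF replicate 1, 3 or 4. Tnf rose from 1.48 to 93.1 CPM (5.97 ± 0.21, adjusted p = 1.62e-10), and the EGF receptor ligands Areg (0.366 to 78.8 CPM, 7.66 ± 0.36) and Ereg (6.05 ± 0.66) rose. The fitted change was 8.79 for Areg without PBS replicate 2, and 9.53 for Ereg without PBS replicate 3, which held all 4 of its PBS counts. Nrg4 (−3.39 ± 0.46) and Egf (57.5 to 22.0 CPM, −1.39 ± 0.12) fell. Of 27 tested receptors and adhesion molecules 13 rose and 5 fell (median 0.20). Icam1, an adhesion molecule for leukocytes, went from 0.617 to 290 CPM (8.85 ± 0.20), and Tnfrsf1b, the second TNF receptor (3.95 ± 0.13), and Pvr (3.78 ± 0.12) rose. The Notch ligand Dll4 fell from 70.1 to 7.10 CPM (−3.30 ± 0.21) and the receptor Notch1 from 61.9 to 8.31 CPM (−2.90 ± 0.20), and so did Mertk (−4.29 ± 0.41).

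Of 31 basement membrane and matrix genes, 10 had 0 counts and 16 were tested, of which 5 rose and 1 fell (median 0.04). Tnc, encoding the matrix glycoprotein tenascin-C, rose from 1.08 to 15.6 CPM (3.82 ± 0.34), and Col4a1 had 0 and 77 counts, at least 20.4-fold higher (adjusted p = 0.000214), though it did not pass the stricter filter. Its bound was 14.4 without PBS replicate 1, 13.1 without PBS replicate 2 and 13.4 without PBS replicate 3. Lamb1, a laminin chain, fell from 180 to 14.4 CPM (−3.64 ± 0.14). The proteoglycan Acan, a substrate of Adamts4, was at 0 in all libraries, and Vcan had 130 and 82 counts with an adjusted p of 0.132. Of 4 tested ADAMTS-like genes, which lack the protease part, Adamtsl4 rose (0.71 ± 0.21, adjusted p = 0.0111) and Thsd4 fell (−2.02 ± 0.32, median −0.75). The Adamtsl4 call was lost without PBS replicate 2 (adjusted p = 0.0509) and under scaling by total counts (adjusted p = 0.0887). Other zinc metalloproteinases fell in 4 and rose in 0 of 8 tested genes (median −0.79): Anpep, a brush border aminopeptidase, from 375 to 43.4 CPM (−3.11 ± 0.14), Mme, encoding neprilysin, from 11.9 to 0.186 CPM (−5.93 ± 0.52; −7.12 without TNF replicate 1), Cpm (−1.51 ± 0.21) and Mep1a (−1.39 ± 0.23). Enterocyte markers, which mark cells with such brush border enzymes, fell in 4 and rose in 1 of 6 tested genes, and their part in these falls was not tested.

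**Figure D5:**
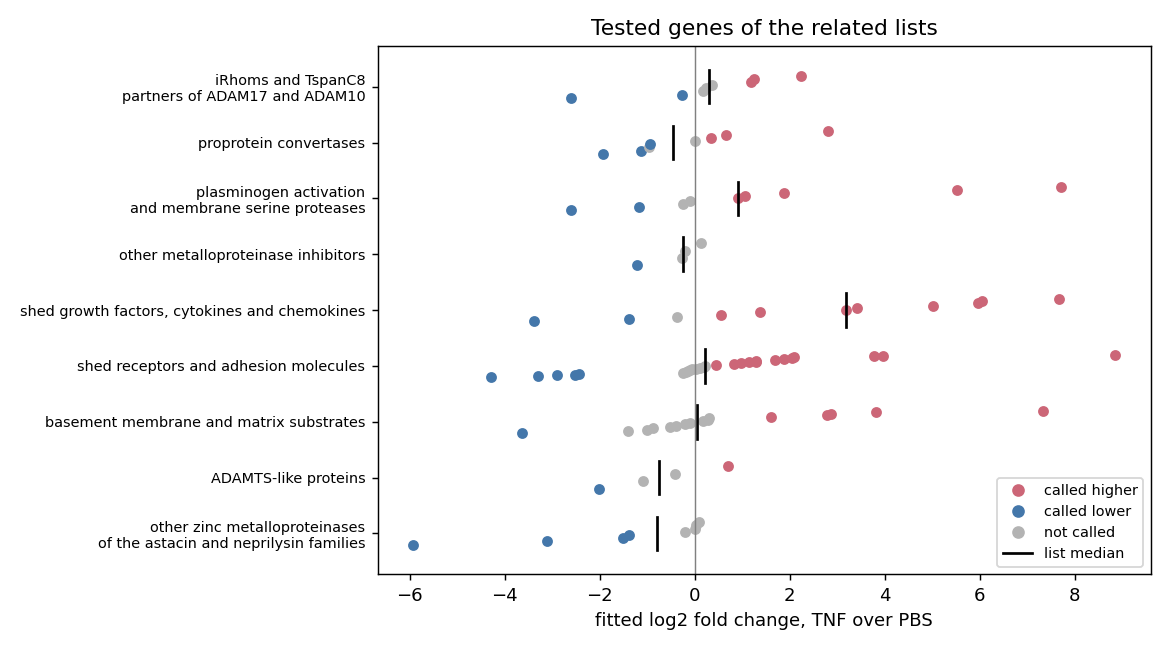
Fitted log2 fold change of TNF over PBS for every tested gene of the 9 related lists, 1 point per gene (red called higher, blue called lower, grey not called) and a black line at the list median. Shed growth factors, cytokines and chemokines have their median at 3.19 and every other list has it between −0.79 and 0.90; Col4a1, at the right of the matrix row, had 0 counts after PBS, so its position depends on the fit.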

How the data were processed

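RNA of sorted PCs from 3 PBS and 4 TNF mice was sequenced with single-end reads. The authors deposited raw counts, as whole numbers of reads per Ensembl gene and library. The submitters' processing notes name FastQC, Trimmomatic 0.39, STAR 2.7.10a, DESeq2 and the builds mm10 and mm39 without order. How reads were counted, with which annotation and with or without strand, was not given in the sources used here. Overlapping genes are therefore uncertain: 11 of the 21 tested members share exon bases with an opposite-strand gene, 9 with a partner that had counts. Symbols, exon lengths and coordinates came from GENCODE M39 on GRCm39, which held 54749 of the 55414 identifiers.

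Over all 7 libraries, TNF was compared with PBS by edgeR 4.0.16 under R 4.3.3 (quasi-likelihood test, two-sided, robust, filterByExpr, TMM scaling, no covariates), with Benjamini-Hochberg adjustment over 14329 genes and a threshold of 0.05. SE were the fitted change over the root of its F statistic, and 95% intervals from the t distribution of the fit. Folds against 0 counts set the observed level of the other group against 3 counts over the empty group. Counting error of that other group is not part of such a bound. The exact interval of a count ratio covers counting error only. The test was tried on simulated counts. Depth, at 15511455 to 19193721 counts, limits values near 0.

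The rule named every tested member; values per library were given for those called at 2-fold or more, the 3 highest per kilobase in each group, and Adam10, Adam17, Mmp2, Mmp9, Mmp14 and the TIMP genes. Members below the filter with at least 10 counts, undetected members, and up to 3 rising and 3 falling genes per list at 1 CPM or more were also named. Mmp7, Acan, Vcan, Reck, Plau, Mep1a, Spint1, Serpine2, Cx3cl1 and the marker genes with values were named after their values were seen. Some genes that the rule or the lists hold are not reported here. Members and lists were chosen with earlier results of these data known. Alternatives were DESeq2 1.42.0, limma-voom (limma 3.58.1), other scalings and filters, the replicate number as a block, and each library left out.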

Additional observations from a re-analysis of the deposited data

Results flagged for a closer look

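In 1 of 21 tested genes, a TNF library stood apart from the other 3. Adamts4 was at 4.44 CPM in TNF replicate 3 and at 7.33, 7.90 and 7.85 CPM in the others, and the gap below the nearest library, divided by the range of the group, passed the Dixon limit for 4 values. Chance alone flags about 1 in 20 groups. PBS libraries were too few for this check.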

How the results depend on the processing

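Of 314 alternative values for the 21 tested genes, 303 kept direction and side of the threshold, 2 lost the call, 2 gained it and 7 changed sign, all 7 in genes that were not called. Signs changed for Adam17 under total counts (−0.11) and without PBS replicate 1 (−0.031; −0.031 to 0.13 with a library left out), for Adam1a without PBS replicate 1 (−0.14) or TNF replicate 1 (−0.32; −0.32 to 1.30), and for Adamts17 with limma-voom (0.043), under the replicate block (0.053) and without PBS replicate 1 (0.29; −0.25 to 0.29). Members called numbered 13 with DESeq2, limma-voom, DESeq2 size factors, total counts or TMM without alpha-defensins and Lyz1, 12 with at least 1 CPM in 3 libraries, 18 without a filter (11 lower) and 13 to 15 with a library left out. With a 2-fold rule there were 8, of which 3 were higher. Under total counts the median over all genes went from 0.0017 to −0.16 (log2), and the difference of summed CPM was 44.9 for ADAM, 38.1 for MMP, −1.33 for ADAMTS and −1.42 for TIMP. With a library left out the ADAMTS difference ran from −0.050 (without TNF replicate 2) to 1.80 CPM, and was −0.025 without TNF replicate 1. Same-numbered PBS and TNF libraries did not deviate together (correlations −0.30, −0.03 and −0.17), and those of unlike number ran from −0.21 to 0.35. With so few libraries this check cannot show whether the numbers pair them. Under the replicate block 12 members were called and 7131 genes in all, and Adamts7 was not called (−2.09, adjusted p = 0.0701). The bounds for genes with 0 counts were added after the data were seen.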
